A study of Mus musculus with 10 samples.

Results

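The transcripts described here are those of 43 genes of the cell cycle and of DNA replication, taken by symbol from the 23420 gene rows of the deposited liver count tables. They comprise 10 genes for G1 cyclins, their kinases and E2F factors, 8 for origin licensing and the replicative helicase, 5 for nucleotide supply and the sliding clamp, 13 for G2 and mitotic cyclins, kinases and their controls, and 7 for spindle, kinetochore and chromosome proteins. RNA was sequenced from the livers of 5 starved mice, which had water but no food for 48 hours, and of 5 fed mice kept on standard chow. All were male C57BL/6 mice aged 4 months, no transgene or deletion is named for either group, and each library comes from the liver RNA of 1 mouse, so all liver cell types contribute to it. The series as a whole concerns β-hydroxybutyrylation, a mark on histone lysines that comes from a ketone body.

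A cell that divides passes through G1, copies its DNA in S phase and separates the copies in mitosis. D-type and E-type cyclins with their kinases start the programme by releasing E2F factors from the RB protein family, and E2F factors then raise genes for DNA replication. Genes used in G2 and mitosis come later and are held down in resting cells by the DREAM complex, which binds the cell cycle homology region in their promoters. Most hepatocytes of an adult liver rest outside the cycle, and the liver holds dividing cells of several kinds at low numbers.

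Each library held 18.2 to 29.9 M reads in genes (starved 18.2 to 28.1, fed 23.0 to 29.9). With the scaling of libraries named below, a level of 1 CPM (reads per M reads in genes) stood for 17.3 to 30.2 reads. Starved library 2 stood apart from its group, with a mean correlation of 0.951 with the other starved libraries, against 0.975 to 0.976 for the rest of that group and 0.991 to 0.992 among fed libraries. Hepatocyte transcripts dominated both groups, and Alb, the albumin gene, was at 94215 ± 20087 CPM in starved and 82740 ± 14124 CPM in fed livers (SD, n = 5 each). Levels below are CPM after scaling by trimmed means of M values (TMM), and "rose" and "fell" are used only of genes called at an adjusted p under 0.05.

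Most of these transcripts were lower in starved than in fed liver, and the 5 largest falls were all in genes of mitosis. Without a filter on low counts, 31 of the 43 genes fell and 0 rose, whereas 14.1% of all 18287 genes with reads fell and 13.0% rose. With the filter, 38 of the 43 were tested, 27 fell and 0 rose, against 19.9% of 12796 genes that fell and 18.6% that rose (quasi-likelihood test of edgeR, p-values adjusted over those 12796 genes after Benjamini and Hochberg). At an unadjusted p under 0.05, 27 fell and 1 rose in that test. DESeq2 called 27 lower and 1, Ccnd3, higher, and limma-voom called 28 lower and 0 higher. The log2 fold changes of the 38 ran from -3.98 to 0.37 with a median of -1.09, beside a median of 0.0035 over all tested genes. A fall of more than 1 on the log2 scale was called for 21 of the 38, against 7.79% of all tested genes. These 21 include genes, such as Ccnb1, Aurkb and Top2a, that passed the filter only with fed libraries counted. The filter favours large falls among such genes, so no conclusion is drawn from that contrast.

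Low counts bear on how these numbers read. Of the 38 tested genes, 15 reached the filter's minimum of 0.384 CPM in fewer than 5 starved libraries. These 15 passed the filter only with fed libraries counted, and 13 of them fell. The other 23 were above that minimum in all starved libraries, and 14 of them fell, while 18.6% of the 11724 genes above it in all starved libraries fell. In 21 of the 38 genes every starved library lay below every fed library, a pattern held by 16.7% of all tested genes, and in 0 it lay above, a pattern held by 13.2%. The 21 include genes, such as Ccnb1, Aurkb and Top2a, that passed the filter only with fed libraries counted. The filter favours the lower pattern among such genes, so no conclusion is drawn from this contrast. When libraries were scaled by their totals alone, the median log2 fold change of all genes moved to -0.15 and the calls over all genes shifted to 3482 lower and 1486 higher, against 2549 lower and 2381 higher with the scaling used here.

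**Figure D1:**
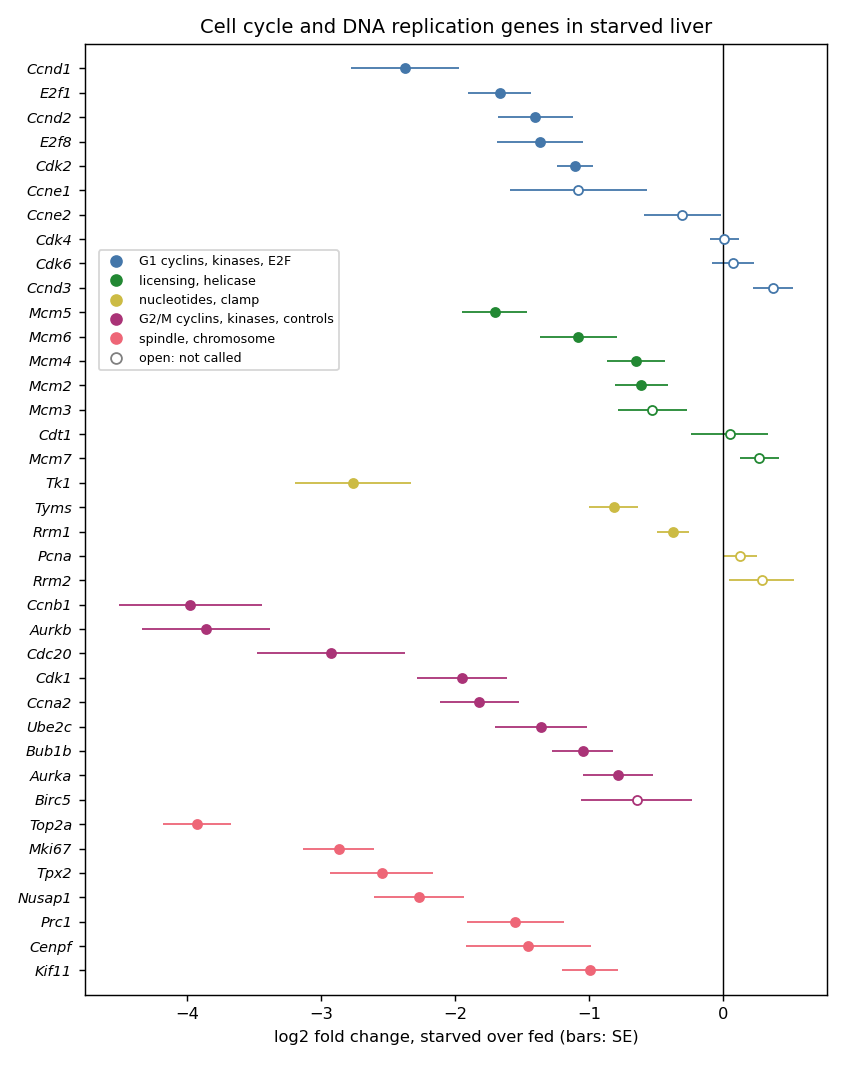
Log2 fold change, starved over fed, of the 38 tested genes (points) with its standard error (bars), grouped and coloured by role. Filled points are genes called at an adjusted p under 0.05 and open points are genes not called. All spindle and chromosome genes and all but Birc5 of the G2 and mitotic genes are filled and lie left of 0, with Ccnb1 farthest at -3.98, while Cdk4, Cdk6, Cdt1 and Pcna lie near 0.

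Of the 20 genes of G2, mitosis, the spindle, the kinetochore and the chromosomes 16 were tested, and 15 fell. Of the 16, 13 were above the filter's minimum in fewer than 5 starved libraries and passed the filter only with fed libraries counted. The other 3, Aurka (-0.78), Bub1b (-1.04) and Kif11 (-0.99), had the smallest falls of the 15. The gene not called was Birc5, which encodes survivin, a chromosomal passenger and apoptosis inhibitor. It had a log2 fold change of -0.64 ± 0.41 (SE; adjusted p = 0.233). Summed over all 20 genes, the level was 5.24 to 7.42 CPM in starved livers, against 17.8 to 34.3 CPM in fed livers. Without the low-count filter, 18 of the 20 fell.

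Ccnb1, the cyclin that carries cells into mitosis, was at 0.117, 0, 0.0492, 0.108 and 0 CPM in starved libraries 1 to 5, against 1.93, 0.729, 0.920, 0.929 and 0.805 CPM in fed libraries 1 to 5. These levels rest on 7 reads in all starved libraries together and 149 in all fed libraries. Every starved library lay far below the lowest fed library, and fed library 1 stood above the other fed libraries. The log2 fold change was -3.98 ± 0.53 (SE; adjusted p = 0.000298).

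Cdk1, the kinase that Ccnb1 activates, was at 0.739, 0.214, 0.639, 0.289 and 0.637 CPM in starved livers, against 2.92, 1.39, 2.21, 1.69 and 1.57 CPM in fed livers. The groups did not overlap, and starved libraries 2 and 4 were the lowest of all. Cdk1 fell with a log2 fold change of -1.95 ± 0.33 (adjusted p = 0.00113), which was -1.50 without these libraries.

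Cdc20 activates the anaphase-promoting complex, which destroys mitotic cyclins. Its level was 0.0389, 0, 0.246, 0.217 and 0.116 CPM in starved livers, against 1.93, 0.663, 0.993, 0.620 and 0.765 CPM in fed livers. All starved values lay below the fed values, and fed library 1 was again the highest. The log2 fold change was -2.92 ± 0.55 (adjusted p = 0.00194). Cdc20 shares 53 exon bases with Elovl1 on the opposite strand, a fatty acid elongase gene that fell as well (-1.01), and the strand setting of the counting is not given in the sources used here.

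Aurkb, the kinase of the chromosomal passenger complex, was at 0, 0.0534, 0.0492, 0.0361 and 0.0580 CPM in starved livers, against 0.843, 0.497, 0.772, 0.516 and 0.362 CPM in fed livers. The starved libraries held 4 reads in all, and no value reached the lowest fed one. Its log2 fold change was -3.86 ± 0.48 (adjusted p = 0.000187).

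Of the other tested genes of G2 and mitosis, Ccna2, the cyclin of S phase and G2, had a log2 fold change of -1.82. Ube2c, the ubiquitin-conjugating enzyme of the anaphase-promoting complex, had one of -1.36, and Bub1b, the spindle checkpoint kinase BubR1, one of -1.04. Aurka, the centrosomal Aurora kinase, fell least, by 0.78 on the log2 scale, and was not called in 6 of the 18 alternative analyses; without starved libraries 2 and 4 its log2 fold change was -0.42 (adjusted p = 0.138). Ccna2 shares 510 exon bases with Exosc9 on the opposite strand, which rose, and Ube2c shares 592 with Tnnc2, which had 1 read in starved and 1 in fed libraries.

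Ccnb2, Foxm1, Plk1 and Bub1 were too low for the filtered test. Ccnb2, a second B-type cyclin, had 4, 1, 2, 0 and 2 reads in starved libraries, against 42, 7, 26, 15 and 25 in fed libraries. Plk1, the polo-like kinase of mitotic entry, had 0, 0, 1, 1 and 0 reads in starved libraries, against 4, 4, 9, 4 and 5 in fed libraries. Bub1, a spindle checkpoint kinase, had 0, 1, 0, 2 and 0 reads in starved libraries, against 22, 5, 7, 9 and 7 in fed libraries. In these 3 genes the groups did not overlap in reads, and they were among the calls made without the filter. Foxm1, a transcription factor of mitotic genes, had 1, 4, 1, 4 and 2 reads in starved libraries, against 6, 6, 10, 2 and 3 in fed libraries, with overlap between the groups.

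All 7 genes of the spindle, kinetochore and chromosomes fell. Top2a, the topoisomerase that untangles replicated chromosomes, was at 0.311, 0.214, 0.148, 0.217 and 0.232 CPM in starved livers, against 4.60, 2.52, 3.13, 3.99 and 3.34 CPM in fed livers. The starved mean was 6.38% of the fed mean, with 25 reads in starved and 491 in fed libraries. Among these 43 genes it had the smallest adjusted p, 5.56e-06, with a log2 fold change of -3.92 ± 0.25. Leaving out starved libraries 2 and 4 left it at -3.85.

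Mki67, whose protein coats mitotic chromosomes and marks dividing cells, was at 0.506, 0.641, 0.541, 0.181 and 0.348 CPM in starved livers, against 3.44, 2.62, 3.31, 3.61 and 3.06 CPM in fed livers. The fed libraries lay close together and the highest starved library was far below the lowest of them. The log2 fold change was -2.87 ± 0.27 (adjusted p = 2.99e-05).

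Tpx2, a spindle assembly factor that activates Aurora A, was at 0.195, 0.214, 0.148, 0.145 and 0 CPM in starved livers, against 0.913, 0.729, 0.993, 1.1 and 0.604 CPM in fed livers. No starved library reached the fed range, and the log2 fold change was -2.55 ± 0.39 (adjusted p = 0.000562). Nusap1, a microtubule-bundling protein of the spindle, had a log2 fold change of -2.27, Prc1, which bundles the central spindle, one of -1.55, Cenpf, a kinetochore protein, one of -1.45, and Kif11, the motor that separates the spindle poles, one of -0.99. Cenpf was the weakest of these calls: its groups overlapped, and it was lost when starved library 1, 3 or 4 or fed library 1, 3 or 5 was left out. Prc1 shares 911 exon bases with Rccd1 on the opposite strand, a gene that rose (0.96).

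Promoter sequence is shown next for 4 mitotic genes with large falls and for Mcm2, a helicase gene that changed less, because the motifs by which cell cycle genes are grouped lie in it. Each line gives the 250 bases before the RefSeq transcript start (build GRCm38.p6, minus strand, read 5′ to 3′), and capitals mark matches on either strand to TTTGAA (the core of the cell cycle homology region), CCAAT (bound by NF-Y), or to one of 4 E2F words. The E2F words searched were TTCCCGC or TTCGCGC and also TTGCCGC or TTGGCGC. Top2a lies at chr11:99024190-99024439, Mki67 at chr7:135716380-135716629, Cdk1 at chr10:69352913-69353162, Cdc20 at chr4:118437344-118437593 and Mcm2 at chr6:88898781-88899030.
Top2a: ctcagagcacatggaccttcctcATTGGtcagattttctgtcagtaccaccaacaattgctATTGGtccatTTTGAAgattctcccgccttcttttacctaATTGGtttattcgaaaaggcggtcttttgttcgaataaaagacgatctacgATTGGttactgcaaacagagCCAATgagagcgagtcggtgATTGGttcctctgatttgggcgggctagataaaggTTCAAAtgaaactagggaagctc
Mki67: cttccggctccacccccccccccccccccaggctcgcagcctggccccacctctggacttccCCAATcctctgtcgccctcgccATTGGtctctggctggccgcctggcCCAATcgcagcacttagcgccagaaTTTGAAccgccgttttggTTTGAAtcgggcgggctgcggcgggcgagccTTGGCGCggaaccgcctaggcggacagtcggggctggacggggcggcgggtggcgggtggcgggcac
Cdk1: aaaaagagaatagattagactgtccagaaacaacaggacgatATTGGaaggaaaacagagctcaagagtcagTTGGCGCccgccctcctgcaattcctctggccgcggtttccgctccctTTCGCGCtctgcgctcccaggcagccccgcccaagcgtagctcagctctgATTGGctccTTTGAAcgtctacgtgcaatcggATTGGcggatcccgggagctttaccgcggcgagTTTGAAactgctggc
Cdc20: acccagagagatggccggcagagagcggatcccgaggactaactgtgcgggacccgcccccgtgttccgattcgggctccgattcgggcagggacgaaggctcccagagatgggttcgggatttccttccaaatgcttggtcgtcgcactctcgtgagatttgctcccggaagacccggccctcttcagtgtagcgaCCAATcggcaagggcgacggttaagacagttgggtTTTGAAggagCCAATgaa
Mcm2: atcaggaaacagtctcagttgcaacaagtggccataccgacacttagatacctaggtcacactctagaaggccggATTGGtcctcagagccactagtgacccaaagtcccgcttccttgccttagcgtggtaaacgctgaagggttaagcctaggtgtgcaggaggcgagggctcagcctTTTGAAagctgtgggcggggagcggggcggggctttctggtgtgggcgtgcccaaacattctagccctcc
Counting the leftmost base of a match relative to the start, TTTGAA lay at -179 and -23 in Top2a, at -116 and -98 in Mki67, at -71 and -15 in Cdk1, at -18 in Cdc20 and at -70 in Mcm2. Top2a held 6 CCAAT matches in this stretch and Mcm2 1. Every promoter shown here holds TTTGAA, whereas those of Ccnb1, Tk1 and Pcna, which are not shown, lack it.

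Over the full windows, from 250 bases before to 50 after the start, 35 of the 43 genes had a RefSeq promoter. Ccna2, Aurkb, Ccnd2, Mcm4, Ccne2, Tpx2, Ccnd1 and Foxm1 were not matched. Of the 16 mitotic genes with a promoter, 12 held TTTGAA and 14 held CCAAT, and all 12 with TTTGAA held CCAAT too. Over all 32851 windows TTTGAA was present in 17.9%, CCAAT in 37.4% and both in 6.95%. Of the genes of licensing and the helicase 6 of 7 held an E2F word, 5 held CCAAT and 1, Mcm2, held TTTGAA. An E2F word was held by 3 of the 16 mitotic genes and by 9.57% of all windows. Genes with several windows, which were Prc1, Mcm7 and Ccnd3, counted once if any window matched, whereas shares over all windows count each window. Of the G1 genes, 1 of 7, E2f8, held TTTGAA, and of the genes for nucleotides and the clamp 0 of 5 did. Ccnb1, the gene with the largest fall, had no TTTGAA in its window, and its E2F match overlaps one of its CCAAT matches. A match is a string of letters, and binding at these promoters was not measured here.

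**Figure D2:**
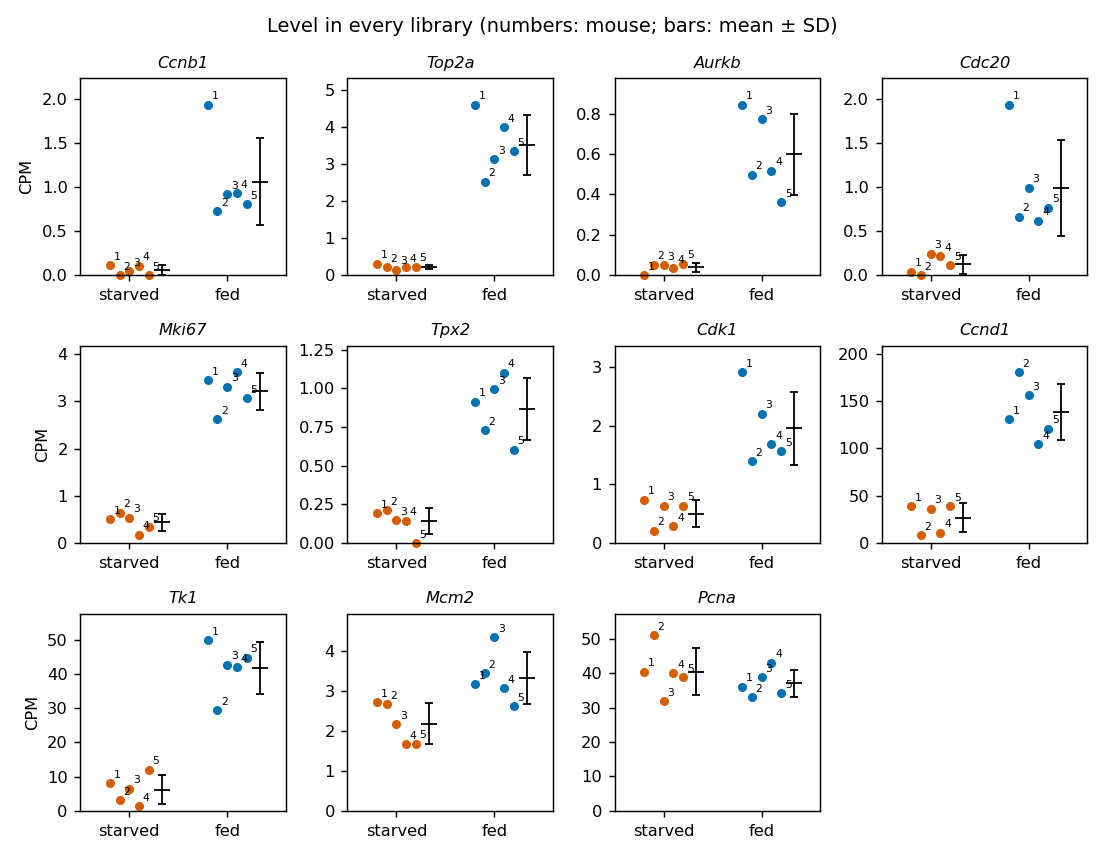
Levels in every library of the 8 genes with the largest falls and of Cdk1, Mcm2 and Pcna, in TMM-scaled CPM on a separate linear axis for each gene, with starved libraries on the left and fed libraries on the right. Each point is 1 library and the bar with its error is the mean ± SD (n = 5 each). The groups stand apart for the mitotic genes, Tk1 and Ccnd1, overlap slightly for Mcm2 and widely for Pcna.

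Among the G1 genes 5 of 10 fell, and they were D-type cyclins, Cdk2 and E2F factors. Ccnd1, which encodes cyclin D1 and couples growth signals to the cycle, was the most abundant of the 43 genes per exon length in fed liver, at 5.69 RPKM (CPM per kilobase of exon) in starved and 29.4 RPKM in fed livers. Its level was 38.8, 8.66, 36.1, 11.2 and 39.1 CPM in starved libraries, against 131, 181, 156, 104 and 121 CPM in fed libraries. The groups did not overlap, and starved libraries 2 and 4 were well below the other starved libraries. The log2 fold change was -2.37 ± 0.40 (adjusted p = 0.00108), and -1.85 without starved libraries 2 and 4. Ccnd1 shares 1100 exon bases with Oraov1 on the opposite strand, which was at 5.38 CPM in starved and 5.53 CPM in fed livers and was not called.

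The other D-type cyclins parted from each other. Ccnd2 was at 2.23 ± 0.90 CPM in starved and 5.92 ± 0.68 CPM in fed livers and fell (log2 fold change -1.40, adjusted p = 0.00278). Ccnd3 was at 12.2 ± 1.98 CPM in starved and 9.43 ± 1.5 CPM in fed livers, a log2 fold change of 0.37 that was not called (adjusted p = 0.0696). It was called higher by DESeq2 (adjusted p = 0.0360), and its log2 fold change was 0.21 with library totals alone. Ccnd3 shares 361 exon bases with Bysl on the opposite strand, which rose (0.61).

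The kinases of the D-type cyclins showed no detectable difference. Cdk4 was at 36.8 ± 5.20 CPM in starved and 36.5 ± 1.46 CPM in fed livers (log2 fold change 0.01 ± 0.11, adjusted p = 0.947), and Cdk6 was at 5.68 ± 1.09 CPM in starved and 5.37 ± 0.57 CPM in fed livers (0.08 ± 0.16, adjusted p = 0.722). Both had a negative sign when libraries were scaled by their totals alone. Cdk4 shares 641 exon bases with Tspan31 on the opposite strand, which was at 445 CPM in starved and 275 CPM in fed livers, far above Cdk4. Cdk2, the kinase of cyclins E and A, was at 4.18 ± 0.50 CPM in starved and 8.99 ± 0.97 CPM in fed livers and fell (-1.11, adjusted p = 0.00016).

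E2f1, an activator of replication genes, was at 0.416 ± 0.149 CPM in starved and 1.33 ± 0.0791 CPM in fed livers and fell (-1.67, adjusted p = 0.000394). E2f8, an atypical E2F that represses and is known from hepatocyte polyploidy, was at 2.92 ± 1.64 CPM in starved and 7.49 ± 1.21 CPM in fed livers and fell too (-1.37, adjusted p = 0.00627). The E-type cyclins, which start S phase with Cdk2, were not called. Ccne1 was at 0.311, 2.46, 0.443, 1.08 and 0.348 CPM in starved livers, against 2.07, 2.12, 1.51, 1.07 and 2.98 CPM in fed livers. Starved libraries 2 and 4 lay within the fed range and libraries 1, 3 and 5 below it, so the groups overlapped (-1.08, adjusted p = 0.113). Without starved library 2 the fold change was -1.75 and called (adjusted p = 0.00366), and without libraries 2 and 4 it was -2.38. Ccne2 had a log2 fold change of -0.30 (adjusted p = 0.419), and it shares 609 exon bases with Ints8 on the opposite strand.

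Of 7 tested licensing and helicase genes 4 fell, and their log2 fold changes had a median of -0.61. The Mcm2 to Mcm7 proteins form the ring that unwinds DNA, and Cdc6 and Cdt1 load it. Mcm5 fell most, at 1.01 ± 0.34 CPM in starved and 3.26 ± 0.56 CPM in fed livers (-1.70, adjusted p = 0.000404), followed by Mcm6 (-1.08, adjusted p = 0.0119).

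Mcm2 was at 2.72, 2.67, 2.16, 1.66 and 1.68 CPM in starved livers, against 3.16, 3.45, 4.34, 3.06 and 2.62 CPM in fed livers. The lowest fed library lay just inside the starved range. Mcm2 fell by 0.61 ± 0.20 on the log2 scale (adjusted p = 0.0308), and Mcm4 by 0.65 (adjusted p = 0.0347). Both calls were lost in several omissions of 1 library: that of Mcm2 without starved library 3, 4 or 5 or fed library 2 or 3, and that of Mcm4 without starved library 1, 3, 4 or 5 or fed library 2, 3, 4 or 5.

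Mcm3 was not called (-0.53, adjusted p = 0.126), and starved library 2, at 5.24 CPM, was above all fed libraries. Without that library Mcm3 was called at -0.81 (adjusted p = 0.00299). Mcm7, which had the highest level of the helicase genes per exon length (2.80 RPKM in starved and 2.32 RPKM in fed livers), had a log2 fold change of 0.27 (adjusted p = 0.160). It shares exon bases with Cops6 and Ap4m1 on the opposite strand, and Cops6 rose (0.54). Cdt1 was at 1.83, 6.57, 2.36, 3.36 and 3.65 CPM in starved livers, against 3.23, 3.68, 3.24, 3.72 and 3.18 CPM in fed livers. The starved libraries spread on both sides of the narrow fed range, and its sign turned with the setting, from 0.05 as fitted to -0.28 without starved library 2. Cdc6, not tested, had 2, 1, 3, 3 and 1 reads in starved libraries, against 11, 11, 5, 7 and 13 in fed libraries.

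Of the 5 genes for nucleotide supply and the sliding clamp 3 fell. Tk1, the cytosolic thymidine kinase that salvages thymidine in S phase, was at 8.01, 3.10, 6.44, 1.45 and 12.0 CPM in starved livers, against 49.9, 29.5, 42.7, 42.0 and 44.8 CPM in fed livers. No starved library came near the lowest fed library, and libraries 2 and 4 were again the lowest of the starved ones. The log2 fold change was -2.76 ± 0.43 (adjusted p = 0.000675), and -2.24 without these libraries. Tk1 shares 83 exon bases with Afmid on the opposite strand, which was at 94.7 CPM in starved and 163 CPM in fed livers (-0.78, adjusted p = 0.0649).

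Tyms, which makes thymidylate afresh, was at 5.22 ± 1.46 CPM in starved and 9.20 ± 0.70 CPM in fed livers and fell (-0.81, adjusted p = 0.00495). The subunits of ribonucleotide reductase, which makes deoxyribonucleotides, differed from each other. Rrm1, the large subunit, fell slightly (-0.37, adjusted p = 0.0259), a call lost without starved library 1 or 3 or fed library 4 or 5, and Rrm2, the small subunit, was at 5.70 ± 2.04 CPM in starved and 4.65 ± 0.94 CPM in fed livers (0.29, adjusted p = 0.358). Pcna, the sliding clamp of DNA polymerases and also a repair protein, was at 40.4, 51.0, 31.9, 40.0 and 38.9 CPM in starved livers, against 36.0, 33, 38.9, 43 and 34.1 CPM in fed livers. The groups overlapped over most of their range (0.13 ± 0.13, adjusted p = 0.449). Its sign was negative, at -0.04, with library totals alone.

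**Figure D3:**
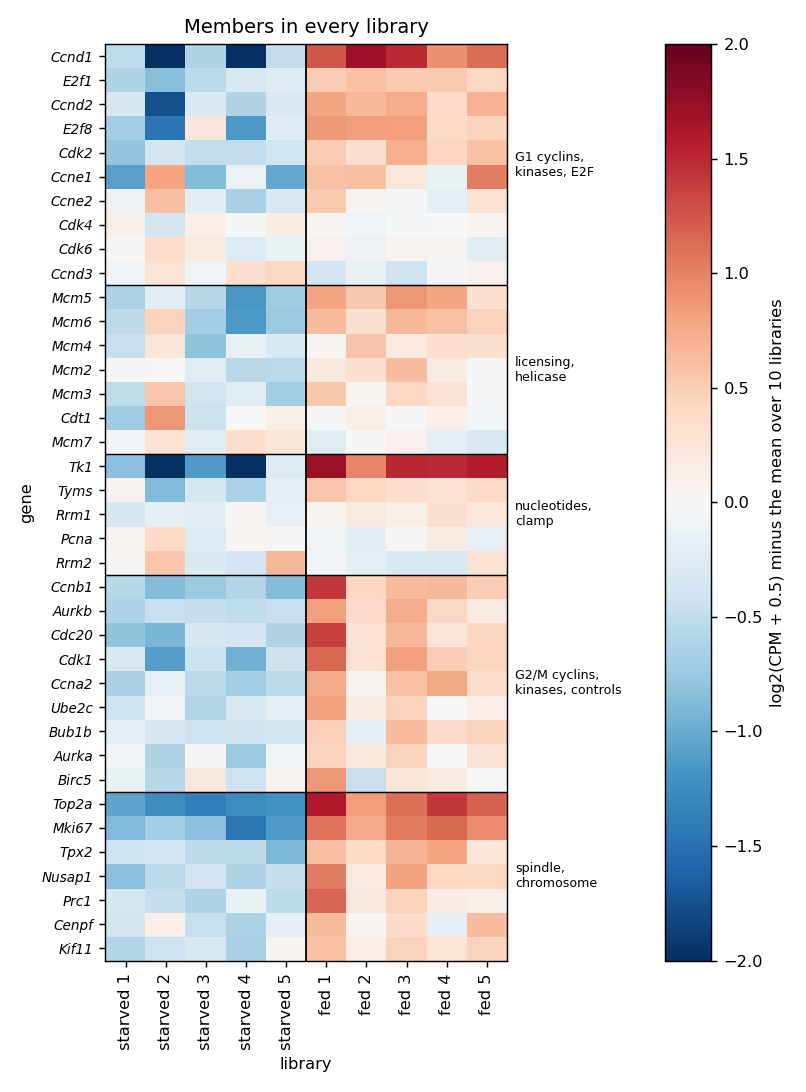
Log2(CPM + 0.5) of each of the 38 tested genes in each library minus the mean of that gene over the 10 libraries. Starved libraries are in the left columns, fed libraries in the right columns, and the genes are ordered by role. The colour scale ends at -2 and 2. Most mitotic rows separate the groups, and starved library 2 stands out within its group for Ccne1, Mcm3, Mcm6 and Cdt1.

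Levels varied among libraries of a group in ways that differed by role. Fed library 1 was the highest fed library for 10 of the 16 tested mitotic genes and fed library 2 the lowest for 9, and these libraries had the highest and the lowest mitotic sum of the fed group (34.3 and 17.8 CPM). Among starved libraries, library 2 was the highest for 15 of the 38 tested genes and the lowest for 10, and library 4 was the lowest for 13. The summed level of the 8 licensing and helicase genes was 21.7 to 39.9 CPM in starved livers, with library 2 at the top, and 31.2 to 38.9 CPM in fed livers, so these sums overlapped. The sum over all 43 genes was 166 to 218 CPM in starved and 346 to 404 CPM in fed livers. Without starved libraries 2 and 4, 26 of the 27 falls were called again and Ccne1, Mcm3 and Ccnb2 were added.

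Of 129 further genes of the same pathways, 110 were tested, 40 fell and 11 rose, beside 19.9% of all tested genes that fell and 18.6% that rose, and their median log2 fold change was -0.32. Of 28 tested genes of the kinetochore, spindle, condensin and cytokinesis 13 fell, led by Ckap2, a spindle protein (-3.32), Cenpe, a kinetochore motor (-2.75), and Kif23, a motor of cytokinesis (-2.34). Zwint (0.46) and Pttg1, the securin gene (0.28), rose. Of 38 tested genes of origins and forks 19 fell, led by Uhrf1, which guides maintenance of DNA methylation (-2.57), Mcm10, a replication initiation factor (-2.19), and Gins2, part of the active helicase (-1.95). Cdc45, another part of that helicase (0.90), Orc5 (0.66) and Orc3 (0.43), subunits of the origin recognition complex, rose. Gins2 lost its call without starved library 4 or 5 or fed library 1 or 5, and also without starved libraries 2 and 4 together. Gins2 stood at -2.75 without starved library 1, and Pttg1 lost its call in 11 of the 18 alternatives.

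Mcm10 acts at the step that switches the loaded helicase on. It was at 9.42, 2.08, 10.8, 2.20 and 8.98 CPM in starved livers, against 30.8, 29.4, 28.4, 35.2 and 28.9 CPM in fed livers. As for Ccnd1 and Tk1, starved libraries 2 and 4 were the lowest and the groups did not overlap.

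Of 5 tested genes for inhibitors of cyclin-dependent kinases, Cdkn1a and Cdkn1b rose and Cdkn2d fell, beside 18.6% of all tested genes that rose and 19.9% that fell. Cdkn1a, which encodes the kinase inhibitor p21, was at 20.8, 124, 12.0, 41.7 and 17.6 CPM in starved livers, against 0.562, 0.961, 1.58, 0.482 and 0.725 CPM in fed livers. Every starved library lay above every fed library, and library 2 was the highest. Cdkn1a rose with a log2 fold change of 5.64 ± 0.71 (adjusted p = 0.00021), 4.75 without starved library 2 and 4.30 without starved libraries 2 and 4. Cdkn1b, the gene of the inhibitor p27, rose by 0.47 without overlap between the groups, and by 0.30 with library totals alone. Cdkn2d, the gene of the Cdk4 and Cdk6 inhibitor p19, fell (-0.51), a call lost without starved library 1 or 4 or fed library 1.

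Of 14 tested genes of the E2F, RB and DREAM group 3 fell and 2 rose, shares near the 19.9% and 18.6% of all tested genes. The activator E2f2 (-3.00), the DREAM and MuvB subunit Lin9 (-1.33) and the RB relative Rbl1 (-1.05) fell. Rb1, the gene of RB itself (0.63), and Rbl2, which encodes p130, the RB relative in the DREAM complex (0.50), rose. Rb1 lost its call when fed library 1, 4 or 5, or starved libraries 2 and 4 together, were left out, and neither was called with library totals alone (adjusted p = 0.0646 for Rbl2). Without starved libraries 2 and 4 Rbl1 stood at -0.65, Rb1 at 0.31, Rbl2 at 0.32, Orc5 at 0.33 and Anapc7 at 0.28, and without starved library 3 E2f2 stood at -3.68. Of 11 tested genes for further cyclins and other regulators of cyclin-dependent kinases, Wee1 and Cdc25b fell, no larger a share than among all tested genes. Wee1, a kinase that restrains Cdk1 and is also known as a clock output, fell by 2.55 on the log2 scale. Cdc25b, a phosphatase that activates Cdk1, fell by 0.96. Of 14 genes of the anaphase-promoting complex, Anapc7 (0.43) and Cdc16 (0.35) rose and Anapc1 (-0.36) and Anapc5 (-0.29) fell, which is no larger a share in either direction than among all tested genes. Anapc7, Anapc1 and Anapc5 each lost their call in 6 to 11 of the alternatives, and Orc3, Zwint and Cdc16 lost theirs with library totals alone.

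Some markers of liver cell types were called too, where 19.9% of all tested genes fell and 18.6% rose. For stellate cell, cholangiocyte and T and NK cell markers the share called in either direction was below the 38.5% of all tested genes. Of 8 Kupffer cell and macrophage markers that were found, 7 fell, and their summed level was 141 to 303 CPM in starved and 370 to 604 CPM in fed livers. Of erythroid markers Alas2 fell and Tfrc rose, and the globin genes Hba-a1, Hba-a2 and Hbb-b1 are listed at 0 in every library. Of 7 endothelial markers 3 fell and Lyve1 rose, with a sum of 195 to 258 CPM in starved and 236 to 276 CPM in fed livers. The 3 tested neutrophil markers rose, with a sum of 2.78 to 22.2 CPM in starved and 1.76 to 3.65 CPM in fed livers, of 6 stellate cell markers Dcn rose, of 5 tested cholangiocyte markers Spp1 alone was called (it fell), and of 4 tested T and NK cell markers 0 were called. Spp1, at 24.2 CPM in starved and 47.2 CPM in fed livers, made up most of the summed cholangiocyte level, while Krt19 (-0.20), Krt7 (-0.56), Epcam (0.43) and Sox9 (0.10) were not called. Of 7 hepatocyte markers 3 rose and Ttr fell. In bulk liver, fewer dividing cells, fewer cells of a type and less RNA per cell cannot be told apart, and the part of these cell types in the lower cell cycle transcripts was not tested.

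**Figure D4:**
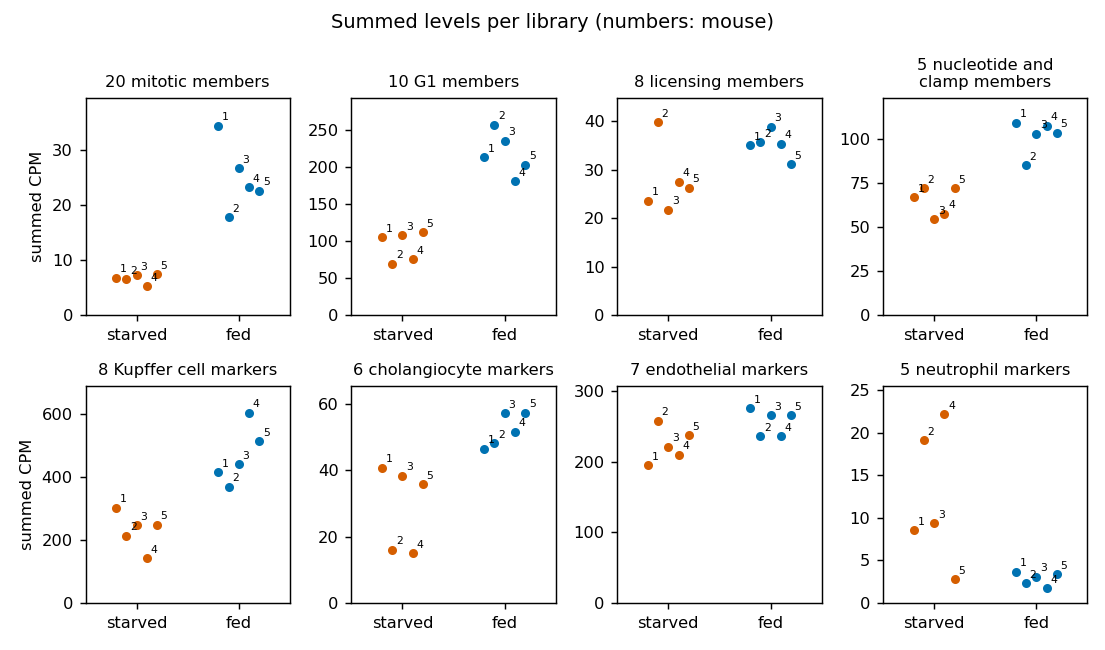
Summed level in TMM-scaled CPM of the mitotic, G1, licensing and nucleotide and clamp genes (top row) and of the Kupffer cell, cholangiocyte, endothelial and neutrophil markers (bottom row), starved left of fed, each panel with its own linear axis. Each point is 1 library with its replicate number beside it. The groups do not overlap for the mitotic genes (5.24 to 7.42 CPM in starved, 17.8 to 34.3 CPM in fed livers), the G1 genes, nucleotide supply or the Kupffer cell markers, nor for the cholangiocyte sum, which is mostly Spp1, and they overlap in the other 3 panels. Most of the difference in the G1 sum lies in Ccnd1, and most of that in the nucleotide and clamp sum lies in Tk1.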

How the data were processed

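Liver RNA was sequenced with a strand-marking TruSeq kit, 1 library per mouse. Per the submitters' processing notes, CASAVA 1.8.2, TopHat2 2.0.0, Bowtie2 2.0.0, HTSeq, edgeR 3.6.4 and build mm10 were used; for annotation and strand setting the sources used here give nothing. Values deposited by the authors are raw read counts per gene. The 5 tally rows that name no gene stayed out: reads aligned to several places made up 38.6 to 48.4% in starved and 46.4 to 48.1% in fed libraries, and reads in no gene 17.1 to 24.7% in starved and 16.0 to 21.3% in fed libraries, so close paralogs may be undercounted. No libraries were duplicates (lowest chi-square per degree of freedom 11.2 among starved and 21.4 among fed pairs). Replicates are separate mice by their labels, and p-values weigh the difference between the groups against the spread between mice.

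Counts were analysed in R 4.3.3 with edgeR 4.0.16 (filterByExpr, TMM, robust quasi-likelihood test of starved over fed, Benjamini-Hochberg over 12796 genes); the alternatives used DESeq2 1.42.0, limma-voom (limma 3.58.1) and the other settings given further on. The code was tested on simulated data. RPKM was computed per kilobase of GENCODE exons (GRCm38, which is mm10), and promoters are from RefSeq. The 43 genes, the lists of further genes and markers and the tests were chosen with earlier results of these data known. Values in every library are given for the 8 largest falls and for Mki67, Top2a, Cdk1, Ccnd1, Pcna and Mcm2; of further genes, up to 3 per direction and role. Mcm10, Cdt1 and Ccne1 were given in every library after their values were seen, as was Cdkn1a. The markers Tf, Adgre1 (present as Emr1), Ly6g, Hbb-bt and Hbb-bs were not matched. Some markers are not reported here.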

Additional observations from a re-analysis of the deposited data

Results flagged for a closer look

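Of 76 groups of 5 libraries checked (38 genes, starved and fed), 6 held 1 library far from the other 4 by Dixon's test at its 95% level, or 7.89%; chance alone marks about 1 in 20 groups. Starved library 2 was the highest for Mcm3 (5.24 CPM, next 2.82), Mcm6 (5.93 CPM, next 2.80) and Ccna2 (0.588 CPM, next 0.348). Fed library 1 was the highest for Ccnb1 (1.93 CPM, next 0.929), Cdc20 (1.93 CPM, next 0.993) and Prc1 (2.04 CPM, next 1.07). All 3 genes that stand out in fed library 1 are mitotic, and that library also had the highest mitotic sum of the fed group.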

How the results depend on the processing

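The number of the 43 genes that fell stayed between 23 and 29 when 1 library was left out, and 22 of the 27 falls were called in each of the 18 alternatives that tested them; Mcm2, Mcm4, Rrm1, Aurka and Cenpf were not. A filter of 1 CPM in 5 libraries removed 10 of the falling genes, which left 17 lower and a median log2 fold change of -0.82. That median was -1.27 with library totals alone, -1.35 without a filter, -1.26 with limma-voom and -1.19 to -1.08 with 1 library left out. The number higher was 1 (Ccnd3) with DESeq2's Wald test, and 0 to 1 with 1 library left out (1 without starved library 1 or 3). Among further cell cycle genes 4 rose with library totals alone, against 11. Signs turned only for genes that were not called in these analyses. Scaling by library totals alone gave -0.141 for Cdk4, -0.0901 for Cdk6, -0.133 for Cdt1 and -0.0402 for Pcna. Cdt1 was at -0.103 with limma-voom and -0.393 without starved libraries 2 and 4. With 1 library left out, Cdk4 ranged over -0.0214 to 0.105, Cdk6 over -0.00989 to 0.180 and Cdt1 over -0.282 to 0.223. Levels under 1 CPM rest on few reads, which limits single mitotic genes in starved liver. The causes were not tested.

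The treatment protocol speaks of mice in 5 pairs, without saying whether the replicate numbers mark them, and the numbers were not taken as pairing: deviations of same-numbered libraries correlated at 0.234, 0.0682, -0.0252, -0.0568 and -0.0296, and 3 of 10 libraries correlated best with their own number. With the replicate block all 27 falls were called, Ccnd3 was called higher (1 gene higher) and the median was -1.22; of the further genes named, Cdkn2d, Pttg1, Anapc5 and Anapc7 lost their call; Cdk4 was at -0.000639 and Cdt1 at -0.0611.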
